A study of Drosophila melanogaster with 15 samples.

Results

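The heads of *GMR > prp4* RNAi flies were compared directly with the heads of *GMR > prp8* RNAi flies, by the reads counted on genes, on exons and across splice junctions. The members were the 5 libraries labelled as *prp4* knockdown and the 5 labelled as *prp8* knockdown, 10 of the 15 libraries of the series. The other 5 libraries were *GMR/+* controls and entered as the background level. Every result was also computed with 9 libraries, without the library labelled *prp8* RNAi replicate 14. The labels number the libraries from 1 to 15, so that the *prp4* RNAi libraries are replicates 6 to 10 and the *prp8* RNAi libraries replicates 11 to 15. Values in each library are given in that order.

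All flies carried the *GMR-Gal4* driver, which is active in the eye, and the knockdown flies also carried an RNAi transgene of the GD collection against *prp4* or *prp8*. Flies aged 3 to 5 days had at least 3 cycles of 12 h light and 12 h dark and were by the labels frozen at ZT12, the time at which the lights go off. The study's text also gives an earlier time of collection, so that the levels of clock genes are not tied here to a single time. RNA was taken from whole adult heads, while the driver acts in the eye, so that a count sums cells with and without the knockdown. In such bulk RNA, fewer cells of a type and less RNA per cell cannot be told apart. The study describes its control and *prp4* RNAi libraries as independent biological replicates, and its text does not describe RNA-Seq of *prp8* RNAi heads.

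PRP4 and PRP8 are both proteins of the U4/U6.U5 tri-snRNP, the particle that joins the U1 and U2 snRNPs on a pre-mRNA before the spliceosome becomes active. PRP8 is the large U5 protein that lies at the catalytic centre and holds the splice sites, and it is among the most conserved proteins of the spliceosome. The gene *CG7028* encodes the *Drosophila* PRP4 kinase, and in yeast and human cells the name PRP4 is also used for a U4/U6 protein. The question addressed here is how the heads differ when one or the other component is reduced with the same driver.

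A library held from 11753627 to 11979892 gene counts, 28597628 exon counts, and from 3129163 to 3244363 junction counts. The library labelled *prp8* RNAi replicate 14 stood apart from its group. Each library was placed on a line on which 0 is the mean of the *prp8* RNAi libraries and 1 the mean of the *prp4* RNAi libraries, both taken without the library itself and without replicate 14. On this line the *prp4* RNAi libraries lay between 0.747 and 0.945, the controls between 0.362 and 0.482, and the other *prp8* RNAi libraries between 0.0987 and 0.239. The library labelled *prp8* RNAi replicate 14 lay at 0.810, within the range of the *prp4* RNAi libraries. It was not a copy of any of them, since its counts differed from theirs by a mean chi-square per gene of 9.11 to 47.3, where pairs of *prp4* RNAi libraries differed by 7.77 to 52.7.

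**Figure D1:**
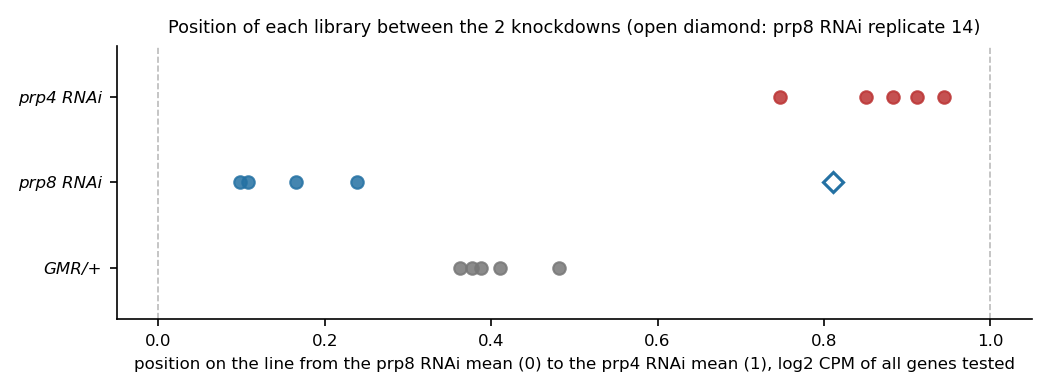
Position of each of the 15 libraries on the line from the mean of the *prp8* RNAi libraries (0) to the mean of the *prp4* RNAi libraries (1), from the log2 counts over the genes tested, scaled to the library total. Each point is a library and the open diamond is the library labelled *prp8* RNAi replicate 14, which lay at 0.810, among the *prp4* RNAi libraries at 0.747 to 0.945.

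The same library did not follow the *prp4* RNAi libraries at every gene. Of 577 genes that differed between the knockdowns without it, it lay nearer the *prp4* RNAi mean at 465 (80.6%) and nearer the mean of the other *prp8* RNAi libraries at 112 (19.4%). The 112 genes included 70 that were higher and 42 that were lower in *prp4* RNAi. Each other *prp8* RNAi library, placed in the same way, lay nearer its own group at 72.6% to 93.5% of the genes. The *prp4* RNAi libraries lay nearer their own group at 71.7% to 91.1%, a range that holds the 80.6% of the library labelled replicate 14. The cause was not tested, and results are given below with and without the library.

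The RNAi targets differed little between the knockdowns in RNA of whole heads. *CG7028*, the *prp4* gene, at 3L 206882 to 211759, had 149, 129, 126, 129 and 111 counts in *prp4* RNAi and 153, 141, 147, 161 and 123 in *prp8* RNAi, against a control mean of 152. The groups overlapped, and the log2 fold change of *prp4* RNAi over *prp8* RNAi was -0.15 (adjusted p = 0.404), or -0.12 without the library labelled *prp8* RNAi replicate 14 (adjusted p = 0.500). Against the control, *CG7028* was at a log2 of -0.23 in *prp4* RNAi and did not pass (edgeR without that library, adjusted p = 0.0757). *Prp8*, at 2R 12153956 to 12163300, had 1585, 1518, 1617, 1504 and 1429 counts in *prp4* RNAi and 1305, 1311, 1264, 1572 and 1304 in *prp8* RNAi, with a control mean of 1451. The 4 other *prp8* RNAi libraries were all below all *prp4* RNAi libraries, and the library labelled replicate 14 was among the latter. *Prp8* was higher in *prp4* RNAi by a log2 of 0.21 ± 0.053 (SE, adjusted p = 0.0492), and by 0.25 ± 0.0447 (adjusted p = 0.00157) without that library. The first of these calls lay at the threshold and was lost in 10 of 13 other settings. Against the control, *Prp8* was at a log2 of -0.16 in the 4 other *prp8* RNAi libraries (adjusted p = 0.0389).

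With all libraries, 215 of 9115 genes tested (2.36%) differed between the knockdowns at an adjusted p under 0.05 by edgeR's quasi-likelihood test with Benjamini-Hochberg adjustment. Of these, 125 (1.37%) were higher and 90 (0.987%) lower in *prp4* RNAi. Without the library labelled *prp8* RNAi replicate 14, 579 of 9159 genes (6.32%) differed, 345 (3.77%) higher and 234 (2.55%) lower, and these 579 held all of the 215. Scaling by library size in place of TMM gave 102 higher and 136 lower with all libraries, and 280 higher and 298 lower without that library. Most differences were small. With all libraries 39 of the 215 (0.428%) differed at least 2-fold. Among the 579 genes, 250 of the 345 higher ones and 157 of the 234 lower ones differed by less than 1.5-fold, and 79 in all (0.863%) differed at least 2-fold. The libraries of the groups did not overlap at 265 genes (2.91%) with all libraries and at 796 (8.69%) without replicate 14.

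The genes with the largest lower values in *prp4* RNAi included *CG13840*, *sad*, *Osi6* and *Osi7*. *CG13840*, at 3R 22814181 to 22816480, had 332, 236, 284, 285 and 276 counts in *prp4* RNAi and 2799, 2456, 3249, 225 and 2789 in *prp8* RNAi, with a control mean of 1458. The library labelled replicate 14 was the lowest of the 10, and the other 4 were far above every *prp4* RNAi library. Its log2 fold change was -3.01 ± 0.427 (SE, adjusted p = 0.00215), and -3.31 ± 0.108 (adjusted p = 1.46e-12) without that library. Against the control, *CG13840* was at a log2 of -2.36 in *prp4* RNAi and 0.95 in the 4 other *prp8* RNAi libraries, which share the control libraries.

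*sad* (shadow), which encodes a cytochrome P450 of ecdysone synthesis, had 139, 186, 252, 267 and 273 counts in *prp4* RNAi and 1030, 1202, 1351, 129 and 1332 in *prp8* RNAi. The control mean was 1125, so that the 4 other *prp8* RNAi libraries lay near the control and the *prp4* RNAi libraries well below it. Its log2 fold change was -2.15 (adjusted p = 0.00909), and -2.44 (adjusted p = 1.54e-08) without the library labelled replicate 14. *Osi6* and *Osi7* belong to the Osiris family, a cluster of genes for transmembrane proteins that are expressed in cells that secrete cuticle. *Osi6* had 1983, 1625, 1738, 1306 and 1491 counts in *prp4* RNAi and 6578, 5588, 7546, 1633 and 6025 in *prp8* RNAi, with a control mean of 2106. *Osi7* had 99, 96, 98, 77 and 61 counts in *prp4* RNAi and 433, 330, 425, 108 and 462 in *prp8* RNAi, with a control mean of 351. *Osi6* was thus above the control in the 4 other *prp8* RNAi libraries, whereas *Osi7* was below the control in *prp4* RNAi. Their log2 fold changes were -1.73 (adjusted p = 0.00348) and -2.01 (adjusted p = 0.00215), or -1.97 and -2.25 without the library labelled replicate 14.

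The other 6 of the 10 largest lower values were *CG8736* (log2 -2.41), *CG17267* (-2.32), *Acp1* (-2.04), *CG9505* (-1.73), *CG12826* (-1.43) and *mre11* (-1.35). *Acp1* encodes an adult cuticle protein, and *mre11* encodes a nuclease of DNA break repair. *CG17267* had 17, 16, 14, 23 and 15 counts in *prp4* RNAi and 104, 100, 103, 20 and 107 in *prp8* RNAi, with a control mean of 10.6. *mre11* had 25, 40, 38, 27 and 31 counts in *prp4* RNAi and 84, 80, 127, 35 and 92 in *prp8* RNAi. At both genes the library labelled replicate 14 fell inside the *prp4* RNAi range and the other 4 lay outside it. *CG17267* was at the control level in *prp4* RNAi, and *Acp1*, with means of 15.8 in *prp4* RNAi, 81.0 in the 4 other *prp8* RNAi libraries and 68.2 in the control, was at the control level in *prp8* RNAi.

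**Figure D2:**
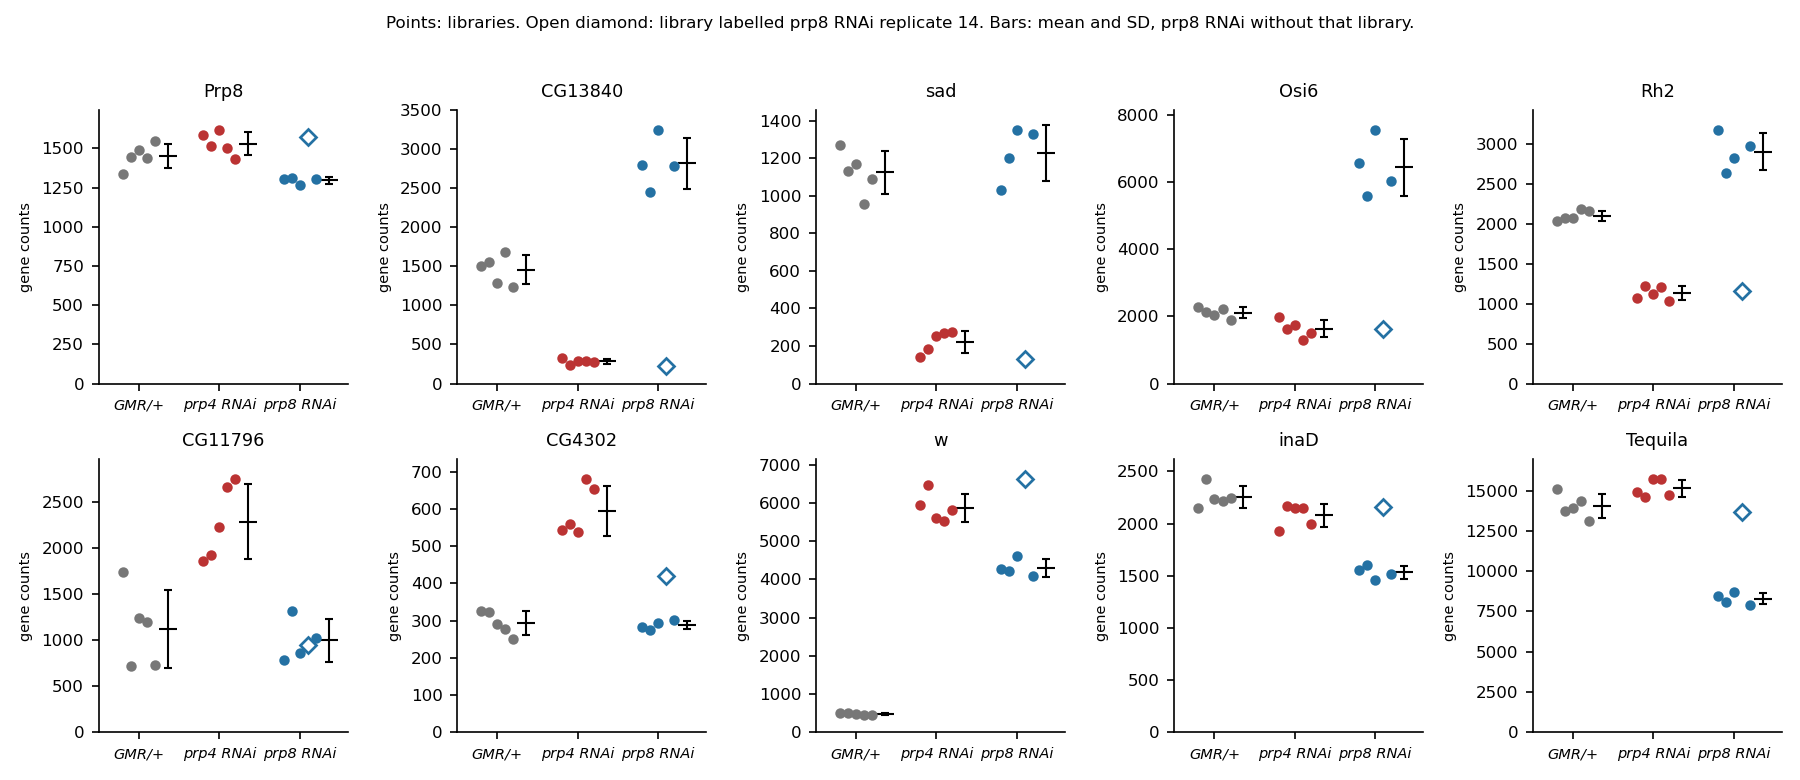
Gene counts in each library of the *GMR/+* controls, *prp4* RNAi and *prp8* RNAi for *Prp8*, *CG13840*, *sad*, *Osi6*, *Rh2*, *CG11796*, *CG4302*, *w*, *inaD* and *Tequila*, with the mean and SD as bars and the *prp8* RNAi mean taken without the library labelled replicate 14 (open diamond). The diamond lies with the *prp4* RNAi libraries in most panels, as at *CG13840* (225 counts), and with the *prp8* RNAi libraries at *CG11796* (948 counts).

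The 10 largest higher values in *prp4* RNAi included *CG11796*, *CG4302*, *CG32447*, *Cpr49Ag* and *Cpr47Ea*. *CG11796*, the gene of the enzyme 4-hydroxyphenylpyruvate dioxygenase, had 1864, 1928, 2224, 2663 and 2749 counts in *prp4* RNAi and 787, 1318, 858, 948 and 1026 in *prp8* RNAi. All *prp8* RNAi libraries, the one labelled replicate 14 included, were below all *prp4* RNAi libraries. Its log2 fold change was 1.24 ± 0.215 (SE, adjusted p = 0.00611), and 1.21 (adjusted p = 0.00328) without that library. *CG4302* (Ugt49B1), a UDP-glycosyltransferase gene, had 543, 561, 537, 681 and 654 counts in *prp4* RNAi and 284, 275, 294, 419 and 302 in *prp8* RNAi, again without overlap, and a log2 fold change of 0.95 ± 0.11 (adjusted p = 0.000653). *CG32447* had 456, 427, 451, 435 and 451 counts in *prp4* RNAi and 140, 165, 148, 338 and 229 in *prp8* RNAi, with a control mean of 538. For *CG32447* the *prp8* RNAi libraries were the ones away from the control, and its log2 fold change was 1.15 (adjusted p = 0.00215).

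*Cpr49Ag* and *Cpr47Ea* encode cuticle proteins with a chitin-binding domain. *Cpr49Ag* had 57, 41, 46, 82 and 41 counts in *prp4* RNAi and 15, 5, 6, 48 and 10 in *prp8* RNAi, and its log2 fold change was 1.69 (adjusted p = 0.0256), or 2.57 without the library labelled replicate 14 (adjusted p = 1.81e-05). *Cpr47Ea* had 270, 245, 258, 306 and 383 counts in *prp4* RNAi and 103, 78, 98, 253 and 147 in *prp8* RNAi, and its log2 fold change was 1.14 (adjusted p = 0.0110). Replicate 14 was the highest *prp8* RNAi library at both. Of the other members, *Prx2540-2* encodes a peroxiredoxin and was at a log2 of 1.02 (adjusted p = 0.00611), and *Ugt37b1*, a UDP-glycosyltransferase gene, passed in both fits and was at 1.06 without the library labelled replicate 14 (adjusted p = 0.00400). The counts of *Prx2540-2* are uncertain, because *Prx2540-1* and *CG12896* are near-identical copies. *Prx2540-1* was at 0.88 (adjusted p = 0.00997) and *CG12896* at 0.72 (adjusted p = 0.0867).
*Pex7*, which encodes the receptor of a peroxisome import signal and overlaps *Arr2*, had 64, 66, 55, 64 and 64 counts in *prp4* RNAi and 25, 27, 25, 55 and 13 in *prp8* RNAi, at a log2 of 1.13 (adjusted p = 0.0111). *CG10184* was at 0.95 (adjusted p = 0.0256) and *Crg-1* at 0.89 (adjusted p = 0.0211).

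The enzymes that break down phenylalanine and tyrosine were named after their values were seen. All 6 were higher in *prp4* RNAi in both fits, where 1.37% and 3.77% of all genes were higher. Because the set was drawn up from these values, its count is a description and is not to be read against those shares. In the order of the pathway these are *Hn* (phenylalanine hydroxylase), *CG1461* (tyrosine aminotransferase), *CG11796*, *hgo* (homogentisate 1,2-dioxygenase), *GstZ2* (of the glutathione transferase class that isomerises maleylacetoacetate) and *Faa* (fumarylacetoacetase). *Hn* had 8510, 9174, 9775, 11070 and 10754 counts in *prp4* RNAi and 7262, 8014, 7903, 7723 and 7581 in *prp8* RNAi, at a log2 of 0.38 (adjusted p = 0.0142). *hgo* had 488, 541, 526, 678 and 675 counts in *prp4* RNAi and 335, 354, 306, 352 and 389 in *prp8* RNAi, at 0.77 (adjusted p = 0.00611). *Faa* had 843, 857, 835, 1051 and 975 counts in *prp4* RNAi and 632, 584, 596, 615 and 699 in *prp8* RNAi, at 0.57 (adjusted p = 0.00391). At these 3 genes the groups did not overlap, and the library labelled replicate 14 lay inside the range of the other *prp8* RNAi libraries. *CG1461* was at 0.48 (adjusted p = 0.0237) and *GstZ2* at 0.37 (adjusted p = 0.0449). In 13 other settings the call with all libraries was lost 10 times at *GstZ2*, 7 times at *CG1461* and 1 time at *Hn*.

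These enzymes are strongly expressed in fat body, and the fat body markers varied between the libraries. The summed counts of the 12 fat body markers ran from 94295 to 294413 in *prp4* RNAi, from 90273 to 164468 in the 4 other *prp8* RNAi libraries, and from 104625 to 158123 in the control. The library labelled *prp8* RNAi replicate 14 had the lowest sum of all libraries, 86614. Of the 12 markers 8 were tested and 0 passed edgeR's test or DESeq2, 2 having an unadjusted p under 0.05, and up to 3 were at 0 counts in a library. The 2 highest sums were *prp4* RNAi replicates 9 and 10, at 258988 and 294413, which also had the highest counts of *CG11796* and *hgo*. The part of fat body RNA in these differences was not tested.

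Among the genes tested with all libraries, the library labelled *prp8* RNAi replicate 14 differed most from the 4 other *prp8* RNAi libraries at *CG10407*, *CG10264*, *CG13891*, *Cyp4g1* and *Ada1-1*. *CG10407* (Jhbp5, at 3R 16044445 to 16046432), which by its name belongs to the juvenile hormone binding protein family, had 2205, 2087, 2039, 2045 and 1991 counts in *prp4* RNAi. It had 14, 10, 9, 2064 and 10 in *prp8* RNAi and a mean of 5.4 in the control. Without the library labelled replicate 14 its mean was 193 times higher in *prp4* RNAi (exact 95% interval of the counting error 143 to 267, adjusted p = 3.27e-16), whereas with all libraries its adjusted p was 0.198. Its neighbour *CG10264* (Jhbp4, at 3R 16043196 to 16045134) had 120, 132, 108, 152 and 130 counts in *prp4* RNAi, 132 in the library labelled replicate 14, and 0 in the 4 other *prp8* RNAi libraries and in all controls. This is at least 171-fold higher in *prp4* RNAi, with a floor of 3 counts over the 4 libraries. The 2 genes overlap, so that reads of one can be counted in the other.

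Neighbours of *CG10407* on chromosome 3R differed in the same direction. Within 50 kb, *ird5* (a kinase of the immune response, mean 491 against 308, log2 0.69), *CG5013* (157 against 76.0, log2 1.06), *msps* (a microtubule polymerase, 3824 against 2458, log2 0.65) and *CG32855* (230 against 103, log2 1.16) were higher in *prp4* RNAi without the library labelled replicate 14. That library had 549, 162, 4106 and 259 counts of the 4 genes, each above the mean of *prp4* RNAi. Of the 9 tested neighbours, *CG10264* among them, 5 were higher and 0 lower, beside 3.77% of all genes higher in that fit, and *srp*, *pnr*, *Mhcl* and *sxe2* did not pass edgeR's quasi-likelihood test. The place was chosen for the contrast at *CG10407* and *CG10264* in these same data. The count of neighbours is therefore a description and is not to be read against that share. In 13 other settings the call with all libraries was lost 10 times at *ird5*, 8 times at *CG32855*, 6 times at *msps* and 2 times at *CG5013*. *CG10407* overlaps *ird5*, and *CG5013* overlaps *msps*, so that their reads can be shared.

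Similar contrasts occurred elsewhere in the genome. *CG13891*, which overlaps *klar* on 3L, had 73, 63, 63, 59 and 63 counts in *prp4* RNAi and 3, 0, 0, 72 and 0 in *prp8* RNAi, a ratio of 85.6 without the library labelled replicate 14 (interval 29.0 to 417). *Ada1-1*, a subunit gene of the SAGA complex, had 0, 0, 0, 2 and 0 counts in *prp4* RNAi and 22, 20, 25, 0 and 16 in *prp8* RNAi, with a control mean of 19.0. *Ada1-1* was thus missing from *prp4* RNAi and at the control level in *prp8* RNAi, a ratio of 51.9 (interval 13.9 to 435). *Vm32E*, a vitelline membrane protein gene, had 0, 0, 0, 0 and 1 counts in *prp4* RNAi and 135, 120, 163, 0 and 140 in *prp8* RNAi, with a control mean of 1.6. For *Vm32E* the *prp8* RNAi libraries were the ones away from the control, a ratio of 698 (interval 125 to 27600). *Cyp4g1*, an enzyme of cuticular hydrocarbon synthesis, varied within the groups, with 279, 76, 266, 4 and 321 counts in *prp4* RNAi and 2, 1, 6, 204 and 49 in *prp8* RNAi (adjusted p = 0.0164 without the library labelled replicate 14, and 0.254 with it). At *Vm32E*, *Ada1-1*, *Cyp4g1*, *CG13891* and *CG10407* that library lay with *prp4* RNAi. These genes were picked for its distance from the other *prp8* RNAi libraries, or for *Vm32E* after its values were seen. Its place at them is therefore a description and not separate evidence about the library.

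The 39 genes of phototransduction were all tested. Without the library labelled replicate 14, 9 were higher and 4 lower in *prp4* RNAi, with a median log2 of 0.07 beside -0.01 over all genes tested. These were 33.3% of the list, beside 6.32% of all genes. With all libraries 1 was higher and 3 were lower (10.3%, beside 2.36% of all genes), whereas DESeq2 called 7 higher and 4 lower. With scaling by library size alone the 9 and 4 became 7 and 4. The 4 lower genes included 3 opsins. *Rh2*, the opsin of the ocelli, had 1070, 1224, 1127, 1215 and 1040 counts in *prp4* RNAi and 3179, 2634, 2833, 1161 and 2975 in *prp8* RNAi, with a control mean of 2104. *prp4* RNAi was below the control (log2 -0.88) and the 4 other *prp8* RNAi libraries above it (0.46), and the 2 knockdowns differed by -1.15 (adjusted p = 0.00348), or -1.34 without the library labelled replicate 14 (adjusted p = 3.97e-11). *Rh3*, an ultraviolet opsin of R7 cells, had 7481, 8291, 8141, 7019 and 7901 counts in *prp4* RNAi and 11904, 12085, 10831, 8183 and 11525 in *prp8* RNAi, and its log2 fold change was -0.47 (adjusted p = 0.00997), or -0.56 without that library (adjusted p = 5.2e-06). *Rh6*, an opsin of R8 cells, had means of 13849 and 17474 and was lower by the 9-library fit only (log2 -0.32, adjusted p = 0.00423, against 0.0591 with all libraries).

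The other opsins did not pass the test in either fit. *Rh4* had means of 9053 and 9058 (adjusted p = 0.929 without the library labelled replicate 14), *Rh5* means of 10932 and 10492 (adjusted p = 0.461), and *ninaE*, the opsin of R1 to R6 cells, was at a log2 of 0.20 (adjusted p = 0.152). None of the 9 higher genes of the list is an opsin. *inaD*, the scaffold of the signalling complex, had 1929, 2169, 2147, 2152 and 1993 counts in *prp4* RNAi and 1553, 1605, 1462, 2157 and 1515 in *prp8* RNAi, at 0.35 (adjusted p = 0.0211), or 0.45 without that library (adjusted p = 1.04e-05). *Galphaq* (0.19), *norpA* (0.24), *trp* (0.22), *rdgA* (0.29), *rdgB* (0.33), *rdgC* (0.28), *rtp* (0.30) and *stops* (0.33) were higher in *prp4* RNAi without the library labelled replicate 14 and did not pass with it. These encode the G protein, the phospholipase, the channel, a lipid kinase, a lipid transfer protein, a phosphatase and 2 regulators of the cascade. *laza*, a lipid phosphatase, was the fourth lower gene, at -0.39 (adjusted p = 0.0249).

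**Figure D3:**
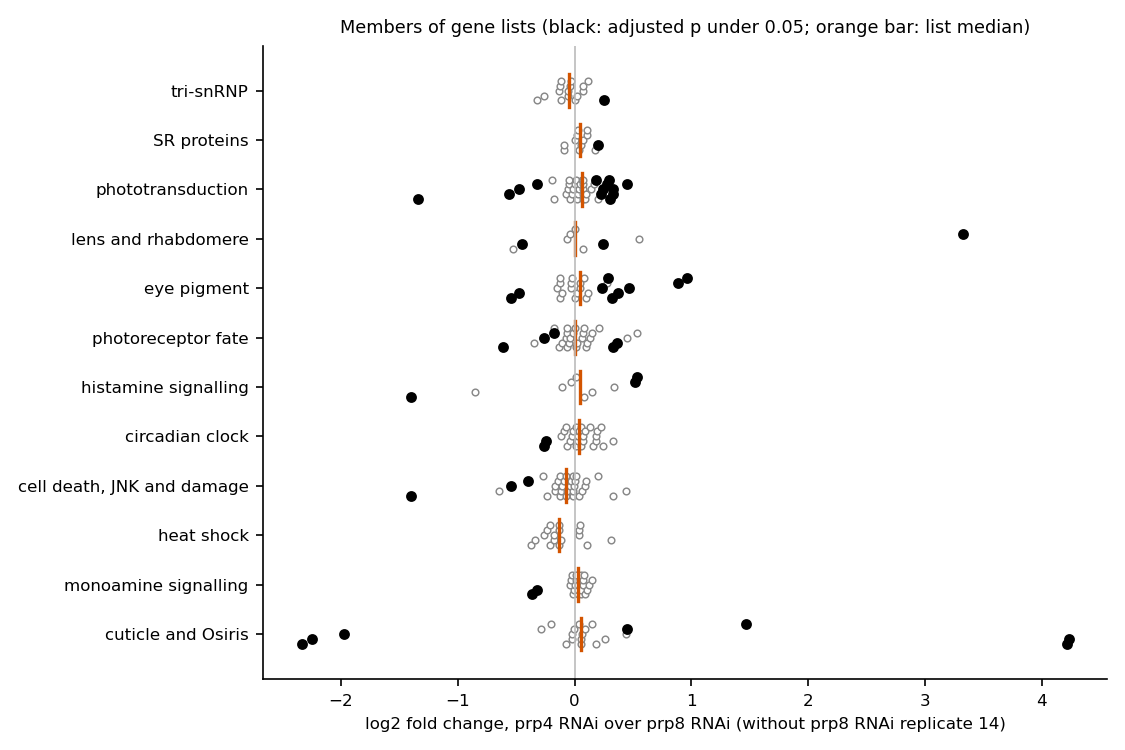
Log2 fold change of *prp4* RNAi over *prp8* RNAi, without the library labelled *prp8* RNAi replicate 14, of each tested member of 12 gene lists, with black points at an adjusted p under 0.05 and an orange bar at the median. The medians lie near 0 for most lists, while in the phototransduction list 9 members passed on the higher side and 4 on the lower side.

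The sum of the photoreceptor markers, most of it *ninaE*, which did not pass, was compared beside these genes. The summed counts of 10 photoreceptor markers ran from 1305208 to 1467281 in *prp4* RNAi, from 1246295 to 1305803 in the 4 other *prp8* RNAi libraries and from 1379171 to 1457966 in the control, and stood at 1449872 in the library labelled replicate 14. None of the 10 was at 0 in any library. The part of the share of photoreceptor RNA in the differences above was not tested, and *Rh2*, *Rh3* and *Rh6* lay in the other direction. Of the 9 genes of the lens and rhabdomere, 2 were higher and 1 lower without the library labelled replicate 14 (33.3%, beside 6.32% of all genes). *Cpr72Ec*, which encodes a cuticle protein of the corneal lens, had 930, 807, 1115, 1087 and 1065 counts in *prp4* RNAi and 101, 43, 97, 1013 and 163 in *prp8* RNAi, with a control mean of 1592. Both knockdowns were below the control there, *prp8* RNAi far more, at a log2 of 3.32 between them (adjusted p = 1.71e-08), or 1.86 with all libraries (adjusted p = 0.0683). *prom* (prominin), a membrane protein of photoreceptors, was lower in *prp4* RNAi in both fits, at -0.38 (adjusted p = 0.00611) and -0.45 (adjusted p = 3.02e-05).

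Of 25 tested genes of eye pigment, 7 were higher and 2 lower without the library labelled replicate 14 (36%, beside 6.32% of all genes), and 4 were higher and 0 lower with it (16.0%, beside 2.36%). With all libraries DESeq2 called 7 higher and 1 lower, and scaling by library size 3 higher and 1 lower. *se* (sepia), an enzyme of drosopterin synthesis, had 304, 254, 267, 313 and 277 counts in *prp4* RNAi and 141, 134, 127, 254 and 184 in *prp8* RNAi, with a control mean of 407, so that *prp8* RNAi was the further from the control. Its log2 fold change was 0.78 (adjusted p = 0.00689), or 0.96 without that library (adjusted p = 5.87e-06). The transporter genes *w* (0.46), *st* (0.89) and *bw* (0.32), *pr* (0.23) and *Hn* of pteridine synthesis and *g* (0.29), a subunit of the adaptor complex of pigment granules, were also higher without the library labelled replicate 14. *cd* (-0.54) and *Dhpr* (-0.47) were lower. *w* had 5949, 6464, 5607, 5524 and 5805 counts in *prp4* RNAi and 4270, 4222, 4613, 6629 and 4081 in *prp8* RNAi, against a control mean of 480. RNAi transgenes of this kind carry a *w* marker gene, and its share of the *w* counts was not tested.

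Photoreceptors use histamine as their transmitter. *Hdc*, the enzyme that makes it, had 1975, 2244, 2247, 2094 and 2129 counts in *prp4* RNAi and 1492, 1641, 1408, 2190 and 1502 in *prp8* RNAi, and its log2 fold change was 0.40 (adjusted p = 0.0205), or 0.51 without the library labelled replicate 14 (adjusted p = 1.7e-05). *CG9317* (CarT), the carcinine transporter of photoreceptors, had means of 996 and 695, at 0.44 (adjusted p = 0.0134). *e* (ebony), the glial enzyme that couples histamine to beta-alanine, had 559, 253, 283, 323 and 231 counts in *prp4* RNAi and 718, 651, 1066, 404 and 1061 in *prp8* RNAi, at -1.22 (adjusted p = 0.0812), or -1.40 without that library (adjusted p = 0.0205). Without that library these were 2 higher and 1 lower of the 10 genes of the list (30.0%, beside 6.32% of all genes), and *e* ran from 371 to 1254 in the controls.

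Of 29 tested genes of photoreceptor fate, 2 were higher and 3 lower without the library labelled replicate 14 (17.2%, beside 6.32% of all genes), and 1 was higher with it. *dve*, which represses opsin genes in outer photoreceptors, had 463, 488, 485, 466 and 458 counts in *prp4* RNAi and 392, 372, 380, 456 and 371 in *prp8* RNAi. The groups did not overlap, and its log2 fold change was 0.29 (adjusted p = 0.00819), or 0.33 without that library (adjusted p = 0.000129). *salr*, a transcription factor of R7 and R8 cells, was at 0.37 (adjusted p = 0.000721), and *eya* at -0.61 (adjusted p = 0.0462), *lz* at -0.26 and *boss* at -0.17 were the 3 lower genes, all without the library labelled replicate 14.

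Of 27 clock genes 2 were lower and none higher in *prp4* RNAi without the library labelled replicate 14, with a median log2 of 0.03, and 1 was lower with it. The share of 7.41% was near that of all genes, 6.32%. DESeq2 called 3 higher and 2 lower without that library. *per*, the period gene, had 1427, 1627, 1368, 1192 and 1362 counts in *prp4* RNAi and 1676, 1669, 1684, 1733 and 1633 in *prp8* RNAi, with a control mean of 1455. All *prp8* RNAi libraries were above all *prp4* RNAi libraries, and the library labelled replicate 14 was the highest of the 10. The log2 fold change of *per* was -0.24 in both fits (adjusted p = 0.0377 with all libraries and 0.0299 without replicate 14). The call with all libraries was lost in 7 of 13 other settings. *Ubpy* (Usp8), a ubiquitin protease, was at -0.26 (adjusted p = 0.00480 without that library). *tim* ran from 14955 to 16546 in *prp4* RNAi and from 13982 to 14970 in the 4 other *prp8* RNAi libraries, with 16926 in the library labelled replicate 14, and did not pass (adjusted p = 0.308, and 0.0946 without it).

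Few other genes of the splicing machinery passed the test. *Prp8* was the one gene called of 16 tri-snRNP genes, with a list median log2 of -0.05 without the library labelled replicate 14. Of 21 tested genes of the Sm core and of the U1 and U2 snRNPs, 0 passed by edgeR or DESeq2 and 4 had an unadjusted p under 0.05.

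Among 32 tested genes of cell death, JNK signalling and damage, 3 were lower in *prp4* RNAi and 0 higher without the library labelled replicate 14, or 9.38% beside 6.32% of all genes. *Gadd45*, a stress response gene, had 183, 188, 202, 180 and 190 counts in *prp4* RNAi and 283, 253, 298, 268 and 278 in *prp8* RNAi, with a control mean of 211. The groups were wholly apart and the library labelled replicate 14 lay in the middle of the *prp8* RNAi libraries, at a log2 of -0.52 (adjusted p = 0.000653) and -0.55 (adjusted p = 3.25e-05). *Ku80*, of DNA end joining, was at -0.40 (adjusted p = 0.0200) without that library. Of 18 tested antimicrobial peptide genes 0 passed edgeR's test with all libraries, against 2 by DESeq2 and 8 at an unadjusted p under 0.05, and *IM23* was lower without the library labelled replicate 14 (log2 -0.69, adjusted p = 0.0442). Of 17 heat shock genes 0 passed by edgeR or DESeq2 in either fit, with 2 at an unadjusted p under 0.05 with all libraries. Of 4 Turandot genes *TotM* passed without the library labelled replicate 14 on 1 library, *prp8* RNAi replicate 15, which had 1924 counts against 45, 61 and 53 in the other 3. In the fit that left out only *prp8* RNAi replicate 15 and kept the library labelled replicate 14, the log2 fold change of *TotM* was 0.12 (edgeR, adjusted p = 0.939). Of 24 genes of monoamine signalling, *Octbeta2R* (-0.32) and *TyrRII* (-0.37), receptors of octopamine and tyramine, were lower in *prp4* RNAi without the library labelled replicate 14. This share of 8.33% was near that of all genes, 6.32%.

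Of 62 cuticle and Osiris genes listed with counts, 22 were tested, and 4 were higher and 3 lower in *prp4* RNAi without the library labelled replicate 14 (3 and 3 with scaling by library size), 31.8% of those tested, beside 6.32% of all genes. The 3 lower ones were *Osi6*, *Osi7* and *Acp1*. The higher ones were *Cpr47Ea*, *Cpr49Ae*, *Cpr49Af* and *TwdlE*. *Cpr49Ag* and *Cpr72Ec*, cuticle protein genes described above, were also higher without that library and are not among these 4. Cuticle genes outside the list were not counted. *TwdlE*, a Tweedle cuticle protein gene, had 114, 141, 132, 98 and 176 counts in *prp4* RNAi and 6, 10, 7, 134 and 5 in *prp8* RNAi, with a control mean of 13.4, so that *prp4* RNAi was the knockdown away from the control. The called genes of the list thus lay in both directions, and the list median log2 was 0.05.

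The lists of markers of other cell types were short, and their part in the differences was not tested. The summed counts of muscle markers ran from 63719 to 69383 in *prp4* RNAi, from 73846 to 78215 in the 4 other *prp8* RNAi libraries and from 63374 to 68379 in the control, so that *prp4* RNAi lay below those 4 libraries throughout. Of its 9 tested members *up* passed, at -0.20 (11.1%, beside 6.32% of all genes), 3 were lower by DESeq2 or with scaling by library size, and 7 had an unadjusted p under 0.05. Of 10 neuron markers 0 passed by edgeR or DESeq2, also before adjustment, of 10 glia markers 1 was higher and 1 lower (20.0%), and of 5 tested gut and salivary gland genes 2 were higher and 1 lower (60.0%). Of 7 hemocyte markers *NimC1* was higher, at 0.33 (adjusted p = 0.0267), and *Hml* lower, at -0.41 (adjusted p = 0.00540), and with scaling by library size only *Hml* passed. Their summed counts ran from 5404 to 5862 in *prp4* RNAi, from 5769 to 6356 in the 4 other *prp8* RNAi libraries and from 6352 to 6704 in the control. The amylase genes *Amy-p* and *Amy-d*, which are near-identical copies and so uncertain, were at 0.79 and 0.66, and *Mal-B1* (maltase B1) had 6, 13, 7, 8 and 6 counts in *prp4* RNAi and 43, 29, 42, 7 and 38 in *prp8* RNAi (log2 -2.22). The summed counts of the gut and salivary gland markers ran from 7307 to 11752 in *prp4* RNAi, from 4756 to 7715 in the 4 other *prp8* RNAi libraries and from 4206 to 6277 in the control.

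Junction use compares a junction with the other junctions of its gene. With all libraries 13 of 4646 genes tested (0.28%) differed between the knockdowns, and without the library labelled replicate 14, 30 of 4605 (0.651%), which included all 13. In 15 of the 30 genes the leading junction was higher in *prp4* RNAi and in 15 lower. The leading junction was an intron of the annotation in 22 genes and not annotated in 8. The library labelled replicate 14 lay nearer *prp4* RNAi at 28 of the 30 leading junctions, and the control lay nearer *prp4* RNAi at 18 and nearer *prp8* RNAi at 12. Of the 30 genes 7 also differed in their gene counts.

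The smallest p was that of *ninaE*. A junction at 3R 19887224 to 19887382 (159 bp), not in the annotation, had 2, 5, 5, 4 and 5 reads in *prp4* RNAi and 57, 66, 60, 7 and 60 in *prp8* RNAi, with a control mean of 12.0. It shares an end with the annotated intron 19887224 to 19887398, which is 16 bp longer and had a mean of 346008 reads in *prp4* RNAi and 307858 in the 4 other *prp8* RNAi libraries. The unannotated junction took 0.0012% of the reads of the pair in *prp4* RNAi and 0.0198% in *prp8* RNAi, so that the difference, though larger than the spread of the libraries (adjusted p = 2.41e-29, and 3.35e-36 without the library labelled replicate 14), concerned a very small share of *ninaE* RNA.

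*Best2*, a bestrophin chloride channel gene, had an unannotated junction at 3L 6251496 to 6251575 with 33, 42, 38, 34 and 41 reads in *prp4* RNAi and 0, 0, 0, 40 and 0 in *prp8* RNAi. The annotated intron at 6251500 to 6251579 has the same length of 80 bp and is shifted by 4 bp. The unannotated junction took 33.3%, 40.0%, 41.3%, 35.8% and 37.6% of the reads of the pair in *prp4* RNAi, none in the 4 other *prp8* RNAi libraries, 36.7% in the library labelled replicate 14, and 20.2% ± 4.23 (SD, n = 5) in the control. The control thus lay between the knockdowns, and the gene count of *Best2* did not differ (adjusted p = 0.517). The sequence at these ends was not examined. *Best2* passed with an adjusted p of 1.30e-05, and 9.64e-25 without the library labelled replicate 14.

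Further leading junctions are given by their reads and, where a partner junction was read, by their share of the pair. *CG43078* had a junction at 3L 8588819 to 8588929 with means of 134 reads in *prp4* RNAi, 56.3 in the 4 other *prp8* RNAi libraries, 134 in the library labelled replicate 14 and 108 in the control. It took 32.0% ± 2.63 (SD, n = 5) of the reads of itself and the annotated intron 8588819 to 8593466 in *prp4* RNAi and 13.4% ± 1.58 (SD, n = 4) in *prp8* RNAi. The exon of 331 bp that it leads to, 8588930 to 8589260, was also the leading exon of the gene, with 273 and 122 reads and 291 in the library labelled replicate 14. The 2 tests use the same reads and are not independent. In *chp* (chaoptin), a photoreceptor cell adhesion gene, the junction 3R 31209699 to 31210260 took 3.93% ± 0.547 (SD, n = 5) of the reads of itself and an annotated intron whose other end lies 21 bp away in *prp4* RNAi and 1.25% ± 0.172 (SD, n = 4) in *prp8* RNAi, with 2.73% in the control. *Zasp52*, a muscle Z-disc gene, had an intron at 2R 15763271 to 15763349 with means of 34.6 reads in *prp4* RNAi, 109 in the 4 other *prp8* RNAi libraries and 114 in the control, and 44 in the library labelled replicate 14. *Pka-R1*, the regulatory subunit of protein kinase A, had an unannotated junction at 3L 20831198 to 20832845 with 28, 23, 40, 22 and 17 reads in *prp4* RNAi, 3, 0, 0, 22 and 1 in *prp8* RNAi and a control mean of 0.6. Without the library labelled replicate 14, the *Pka-R1* junction passed the filter through *prp4* RNAi alone. An unannotated junction at 3L 8647602 to 8648228, listed with *Arr2*, overlaps *Pex7* and its gene is uncertain, with means of 21.6 and 0.25 reads.

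**Figure D4:**
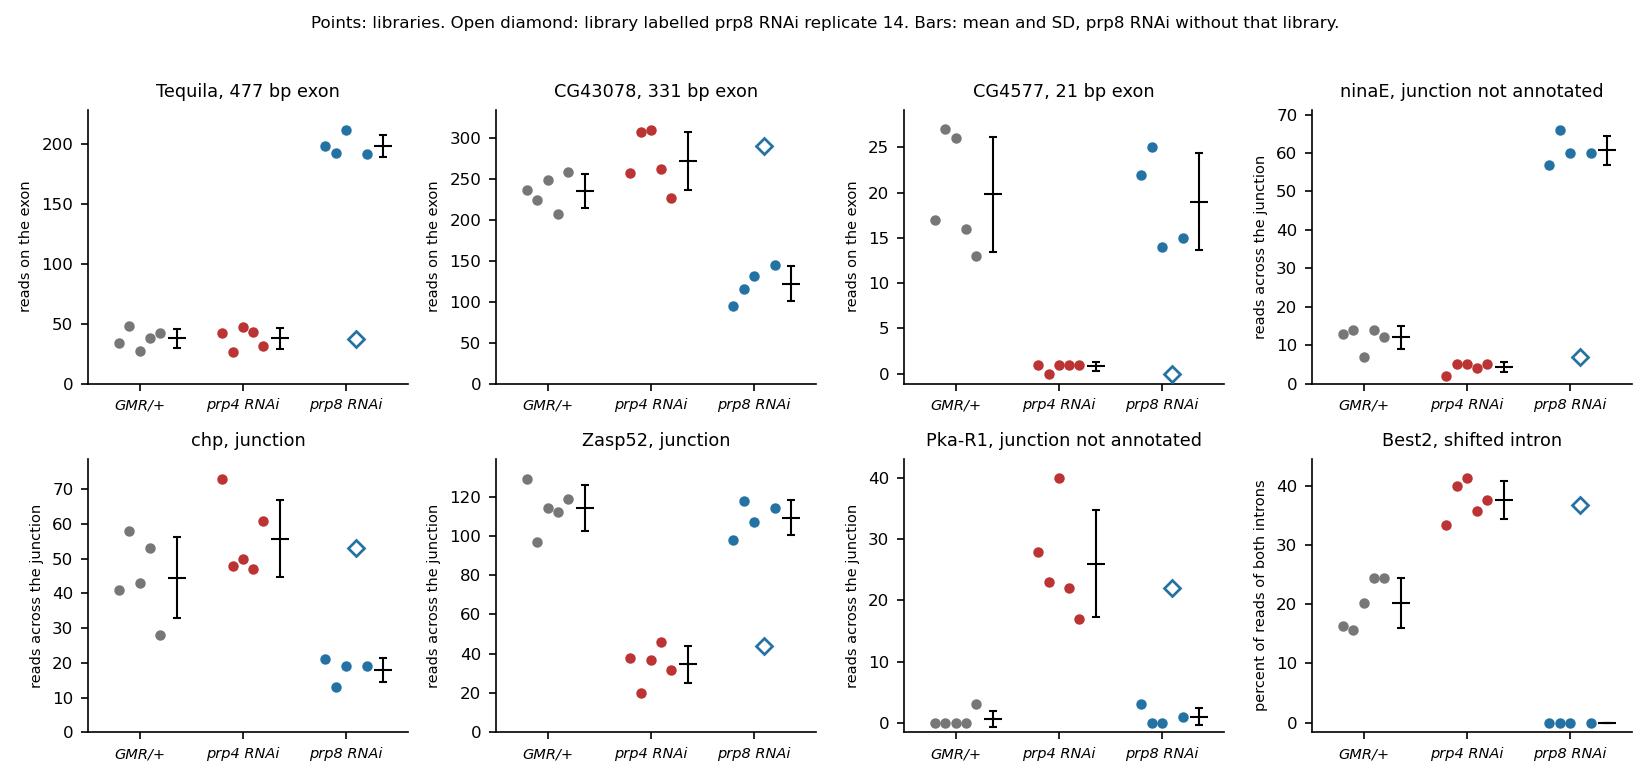
Reads in each library on the leading exons of *Tequila*, *CG43078* and *CG4577* and on the leading junctions of *ninaE*, *chp*, *Zasp52* and *Pka-R1*, and the percent of reads on the shifted intron of *Best2*, with bars at the mean and SD and the library labelled *prp8* RNAi replicate 14 as an open diamond left out of them. The diamond lies with the *prp4* RNAi libraries in each panel, as at *Tequila* (37 reads against 192 to 212 in the 4 other *prp8* RNAi libraries).

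Exon use differed in 27 of 7599 genes (0.355%) with all libraries and in 69 of 7579 (0.91%) without the library labelled replicate 14, and 25 genes were in both sets. The leading exon was higher in *prp4* RNAi in 40 of the 69 and lower in 29. The control lay nearer *prp4* RNAi at 29 of the 69 leading exons and nearer *prp8* RNAi at 40. These splits depend in part on the filter. In that fit an exon read in *prp8* RNAi alone could not enter, whereas one read in *prp4* RNAi alone could. Of the 69 genes 33 also differed in their gene counts, and 16 were also called in the test of junction use, *Best2*, *bw*, *dlg1*, *Npc1a*, *Slob*, *Strn-Mlck*, *Tequila* and *Zasp52* among them.

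*Tequila*, which encodes a large secreted serine protease, had the smallest p. Its exon at 3L 9076319 to 9076795 (477 bp) had means of 37.8 reads in *prp4* RNAi, 199 in the 4 other *prp8* RNAi libraries, 37 in the library labelled replicate 14 and 37.8 in the control. This exon took 0.126% ± 0.0269 (SD, n = 5) of the exon reads of the gene in *prp4* RNAi and 1.21% ± 0.0392 (SD, n = 4) in *prp8* RNAi, so that *prp8* RNAi was the knockdown away from the control. The gene count of *Tequila* lay in the opposite direction, with 14881, 14619, 15688, 15725 and 14736 in *prp4* RNAi and 8430, 8113, 8699, 13677 and 7906 in *prp8* RNAi, at a log2 of 0.72 (adjusted p = 0.00348), or 0.88 without the library labelled replicate 14 (adjusted p = 1.71e-08). The control mean of 14041 again lay with *prp4* RNAi.

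*CG4577* had a leading exon of 21 bp, at 2L 1138621 to 1138641 and marked as not annotated in the deposited table, with 1, 0, 1, 1 and 1 reads in *prp4* RNAi, 22, 25, 14, 0 and 15 in *prp8* RNAi and a mean of 19.8 in the control. There *prp4* RNAi and the library labelled replicate 14 were the ones away from the control. The leading exon of *klar*, at 3L 432844 to 434208, covers *CG13891* and repeats the contrast at that gene, with means of 132 and 0.75 reads. Without the library labelled replicate 14, the *klar* exon passed the filter through *prp4* RNAi alone. The leading exons of *CG43729* and *CG10680* overlap *Mtk* and *CG16772*, and their reads cannot be assigned to one gene. In *CG43729* the groups also overlapped.

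Of the splicing events that the study examined, those in *tim*, *Npc1a* and *trol* were measured as ratios of junction reads within each library. The *tim-tiny* intron (2L 3499764 to 3500000, 237 bp) is kept in 2 of the 8 annotated *tim* isoforms that span it, and its junction reads fall when it is kept. Its reads per read of the neighbouring ctrl intron were 0.252 ± 0.047 (SD, n = 5) in *prp4* RNAi, 0.263 ± 0.0216 (SD, n = 5) in *prp8* RNAi and 0.358 ± 0.0475 (SD, n = 5) in the control. The knockdowns overlapped, and the exact two-sided permutation test gave p = 0.611, or 0.619 without the library labelled replicate 14. The junction had 85 to 126 reads in *prp4* RNAi and 90 to 108 in *prp8* RNAi.

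*Npc1a*, a sterol transport gene, has an intron with alternative ends, 2L 10217181 to 10217340 or to 10217352. The share of the first, which gives the longer exon, was 0.647, 0.624, 0.636, 0.603 and 0.644 in *prp4* RNAi and 0.815, 0.818, 0.853, 0.632 and 0.807 in *prp8* RNAi, with a control mean of 0.804. The 4 other *prp8* RNAi libraries were at the control level, and the library labelled replicate 14 was inside the *prp4* RNAi range. The difference was -0.154 with all libraries (exact permutation p = 0.0317, adjusted over the 5 ratios 0.0661). Without that library it was -0.193, at the smallest p that 5 against 4 libraries allow (exact permutation p = 0.0159, adjusted 0.0397). A single ratio at that p could not pass after adjustment, and *trol* had the same p.

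*trol*, which encodes the basement membrane protein perlecan, includes or skips an exon at X 2494404 to 2494637. The inclusion share was 0.436, 0.477, 0.370, 0.393 and 0.377 in *prp4* RNAi and 0.139, 0.345, 0.267, 0.253 and 0.270 in *prp8* RNAi, with a control of 0.231 ± 0.148 (SD, n = 5). The groups did not overlap, and here the library labelled replicate 14 lay with the *prp8* RNAi libraries. The difference of 0.156 had the smallest p that 5 against 5 libraries allow (exact permutation p = 0.00794, adjusted 0.0397), and without the library labelled replicate 14 the adjusted p was again 0.0397. The shares rest on few reads, a mean of 11.5 to 17.5 per inclusion junction in *prp4* RNAi and 4.5 to 10.5 in *prp8* RNAi, and the controls ran from 0.0725 to 0.404.

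**Figure D5:**
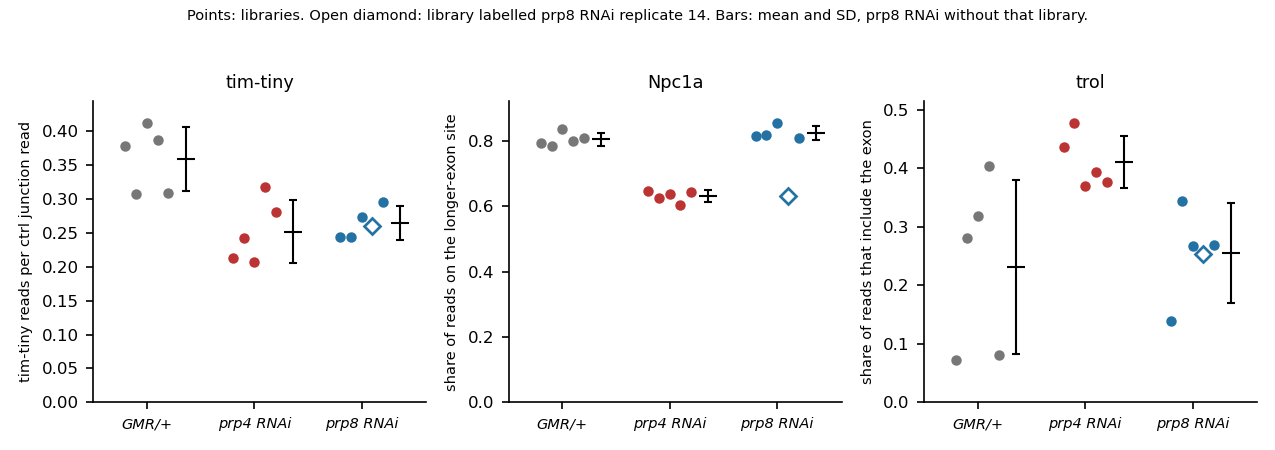
Ratios of junction reads in each library for *tim-tiny* (reads per read of the ctrl intron), *Npc1a* (share of the end that gives the longer exon) and *trol* (share of exon inclusion), with bars at the mean and SD and the library labelled *prp8* RNAi replicate 14 as an open diamond left out of them. The diamond lies with *prp4* RNAi at *Npc1a* (0.632) and with *prp8* RNAi at *trol* (0.253), while at *tim-tiny* the knockdowns overlap.

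Measures over all junctions were close between the knockdowns. The number of junction reads per gene read was 0.267 ± 0.00185 (SD, n = 5) in *prp4* RNAi and 0.268 ± 0.00145 (SD, n = 5) in *prp8* RNAi, with 0.271 in the control (exact permutation p = 0.540). The share of junction reads outside annotated introns was 0.0368 ± 0.000819 (SD, n = 5) in *prp4* RNAi and 0.0379 ± 0.000352 (SD, n = 5) in *prp8* RNAi, with 0.0387 in the control (exact permutation p = 0.0397, adjusted 0.0661). Neither difference passed after adjustment, with or without the library labelled replicate 14.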

How the data were processed

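Heads of 15 libraries were measured with the Lexogen SENSE mRNA-Seq kit on a NextSeq 500. The authors aligned the reads to BDGP6 with STAR 2.5.3a, removed ribosomal and mitochondrial reads, resampled the aligned reads to reduce differences in depth and quantified them with PORT 0.8.2a-beta on Ensembl release 88. The authors deposited counts of reads on genes, exons and junctions, as whole reads, and whether counting used strand is not given in the sources used here. Overlapping genes and near-identical copies are therefore uncertain. Introns were called annotated from Ensembl release 115, in coordinates of the same assembly, and junctions of 1 gene were used (1083571 of 1105894).

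Groups came from the sample labels. Counts of all 15 libraries were fitted together in R 4.3.3 with edgeR 4.0.16 (filterByExpr, TMM and the quasi-likelihood test, contrast of *prp4* RNAi with *prp8* RNAi), with Benjamini-Hochberg adjustment over all genes tested and a threshold of 0.05. A gene is called higher or lower where it passed. Junction and exon use were tested with diffSpliceDGE and Simes p-values on junctions or exons that reached 10 counts in 5 libraries or more, in genes holding 2 or more of them. Without the library labelled replicate 14, the 4 other *prp8* RNAi libraries alone could not meet this minimum. Ratios were computed with Python 3.11.15, numpy 2.4.6, pandas 2.3.3 and scipy 1.17.1 and tested by exact two-sided permutation. Figures were drawn with matplotlib 3.10.9. Intervals and floors cover counting error only.

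The members, gene lists and tests were chosen with earlier results of these data known, and one list of 14 genes was taken from outlying values in these samples and is not independent evidence. Of it 9 were higher and 2 lower without the library labelled replicate 14, with a median log2 of 0.94. The named genes are both RNAi targets, the 10 highest and 10 lowest log2 fold changes that passed with and without that library at a mean of at least 50 counts in a knockdown, up to 4 members per list that passed both ways, the 5 smallest p of each splicing test, the *tim-tiny*, *Npc1a* and *trol* events, and the 5 genes, among those tested with all libraries, at which that library differed most from the other *prp8* RNAi libraries. Further list members, the tyrosine breakdown enzymes, the *Prx2540* copies, the neighbours of *CG10407*, *Vm32E*, *Cpr72Ec* and the basement membrane genes were named after their values were seen.

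On simulated counts the gene test recovered 200 of 200 genes changed in the comparison of 5 with 5 libraries, with 9 false calls among 9069, the junction test 198 of 200 features with 5 false calls among 18388, and the exon test 198 of 200 with 8 among 46990. The alternatives were limma-voom (limma 3.58.1), DESeq2 1.42.0, other scaling and filters, a minimum fold change, the knockdown libraries alone, F tests, other reference junctions and fits without each single replicate. The authors' CASH, Cufflinks and pathway analyses were not used here.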

Additional observations from a re-analysis of the deposited data

Results flagged for a closer look

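In each group of 5 libraries, the highest or lowest value was marked when its gap to the nearest other library exceeded Dixon's 95% limit relative to the range of the group. Chance marks about 1 in 20 groups. Of 135 groups looked at, 33 were marked, and 25 of these were among the 45 *prp8* RNAi groups, 24 of them for the library labelled *prp8* RNAi replicate 14. The control and *prp4* RNAi groups had 4 each. Many of these values were looked at because they differed between the knockdowns or set that library apart, so the number of marks is a description and is not to be read against the chance rate.

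In gene counts, the library labelled *prp8* RNAi replicate 14 stood apart from the other *prp8* RNAi libraries at *Prp8* with 1572 counts (others 1264 to 1311), *Cpr49Ag* with 48 (5 to 15), *CG4302* with 419 (275 to 302), *Crg-1* with 193 (66 to 88) and *Cyp4g1* with 204 (1 to 49). It stood below them at *CG13840* with 225 counts (2456 to 3249), *CG17267* with 20 (100 to 107), *sad* with 129 (1030 to 1351), *Acp1* with 8 (69 to 92) and *CG9505* with 122 (293 to 355). At *CG10407* it had 2064 counts (9 to 14), at *CG10264* 132 (0 in each) and at *CG13891* 72 (0 to 3).

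In junction reads, that library had 7 reads of the unannotated *ninaE* junction (57 to 66 in the others), 44 at *Zasp52* (98 to 118), 40 at *Best2* (0 in each), 53 at *chp* (13 to 21), 134 at *CG43078* (46 to 70), 33 at the junction listed with *Arr2* (0 to 1) and 22 at *Pka-R1* (0 to 3). In exon reads it had 37 at *Tequila* (192 to 212), 111 at *klar* (0 to 1) and 291 at *CG43078* (95 to 145). Its *Npc1a* share was 0.632 (0.807 to 0.853). The cause was not tested.

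The other marked values were single libraries. *GMR/+* control replicate 3 had 7 reads of the *ninaE* junction (12 to 14 in the others), control replicate 5 had 3 reads of the *Pka-R1* junction (0 in each), and control replicate 1 had 3036 reads of the *CG43729* exon that overlaps *Mtk* (77 to 236) and 12 counts of *CG10407* (3 to 5). *prp4* RNAi replicate 7 had 0 reads of the *CG4577* exon (1 in each), replicate 8 had 55 counts of *Pex7* (64 to 66), replicate 6 had 73 counts of *CG13891* (59 to 63) and replicate 9 had 2 counts of *Ada1-1* (0 in each). *prp8* RNAi replicate 12 had a share of 0.0385 of its junction reads outside annotated introns (0.0377 to 0.0379).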

How the results depend on the processing

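No paired analysis was possible because the libraries are numbered from 1 to 15 and no number is shared between the groups. The count of 215 differing genes became 373 with DESeq2, 84 with the knockdown libraries alone, 39 with a minimum of 1 on the absolute log2 fold change, and 75 to 579 with each replicate left out, 75 without *prp8* RNAi replicate 11, 91 without replicate 13, 124 without *prp4* RNAi replicate 9 and 126 without replicate 10. The 579 genes without the library labelled *prp8* RNAi replicate 14 became 79 with the same minimum on the fold change and 386 to 610 with a further replicate left out. The 13 genes of junction use became 6 on annotated introns alone, 26 with F tests, 20 with a minimum of 1 count, 6 with a minimum of 50, and 8 to 30 with each replicate left out (8 without *prp8* RNAi replicate 15). The 30 without the library labelled replicate 14 became 16 on annotated introns, 53 with F tests, 13 with a minimum of 50, and 18 to 26 with a further replicate left out. The 27 genes of exon use became 62 with F tests, 43 with limma, 15 with a minimum of 50, and 12 to 69 with each replicate left out (12 without *prp8* RNAi replicate 11 and 13 without *prp4* RNAi replicate 8), and the 69 became 153, 113 and 45 to 65. These alternatives without the library labelled replicate 14 were added after the data were seen. The causes were not tested, except that fewer libraries or features enter several of these fits.

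The *tim-tiny* difference, -0.0114, turned to 0.00724 against the next downstream junction (exact permutation p = 0.746) and ran from -0.0278 to -1.11e-05 with each replicate left out. The *Npc1a* difference passed without the library labelled replicate 14, also as a log2 ratio (-1.455, exact permutation, adjusted p = 0.0397), and ran from -0.193 to -0.137. That of *trol* ran from 0.127 to 0.179 and no longer passed in 8 fits with a replicate left out (exact permutation, adjusted p = 0.0794). In these fits its exact permutation p was 0.0159, the smallest that 5 against 4 libraries allow. A single ratio at that p cannot pass after adjustment over 5 ratios, and an adjusted p of 0.0397 needs another ratio at the same p. The loss therefore does not show a weaker difference. Junction reads per gene read ran from -0.00136 to -0.000138, and the share outside annotated introns from -0.00144 to -0.000899, passing without *prp4* RNAi replicate 10 (exact permutation, adjusted p = 0.0397).

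Of 121 named genes 113 kept 1 direction throughout, and of 53 called with all libraries 27 kept the call in every alternative. The reversed values belonged to genes not called with all libraries, of which *TotM* passed without the library labelled replicate 14. By library size alone the log2 values of *Rh4*, *CG10680* and *Cg25C* were -0.0149, -0.0138 and -0.0237. With each replicate left out, *Rh4* ran from -0.000586 to 0.0405, *ninaC* from -0.0468 to 0.0352, *TotM* from -3.65 to 0.119, *Arr2* from -0.0484 to 0.0110, *CG4577* from -0.0491 to 0.0342, *CG10680* from -0.0240 to 0.0838, *Npc1a* from -0.0435 to 0.00314 and *Cg25C* from -0.0145 to 0.0247. The low genes and the *trol* junctions rest on few reads, and the part of depth in their results was not tested.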

Other observations

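Genes of the basement membrane, the protein sheet under epithelia, were looked at after their values were seen. *wb*, a laminin alpha chain, had 251, 317, 260, 278 and 270 counts in *prp4* RNAi and 172, 224, 181, 220 and 154 in *prp8* RNAi, with a control mean of 197, at a log2 of 0.56 (edgeR, adjusted p = 0.00611). *LanB2*, the laminin gamma chain, had 365, 372, 347, 327 and 367 counts in *prp4* RNAi and 242, 264, 272, 295 and 282 in *prp8* RNAi, with a control mean of 403, at 0.42 (edgeR, adjusted p = 0.00611). At both genes the groups did not overlap. The library labelled *prp8* RNAi replicate 14 lay inside the range of the other *prp8* RNAi libraries at *wb* and above them, at 295 counts, at *LanB2*.

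The control lay nearer *prp8* RNAi at *wb* and nearer *prp4* RNAi at *LanB2*. The laminin chains *LanA* (0.18) and *LanB1* (0.20), the collagen IV chains *vkg* (-0.12) and *Cg25C* (0.01) and the nidogen *Ndg* (-0.11) did not pass with all libraries. *trol*, perlecan, whose exon choice is described above, was higher in *prp4* RNAi in gene counts without the library labelled replicate 14 only, at 0.24 (edgeR, adjusted p = 0.0415).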
